A study of Rattus norvegicus with 18 samples.

Results

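The genes described here encode core proteins of neurotransmitter release. They are Snap25, Vamp2 and Stx1a, which code for SNARE proteins, Syt1, Sv2a and Syp, which code for membrane proteins of synaptic vesicles, and the synapsin genes Syn1 and Syn2. The list was chosen by function, but with earlier results of these data known. It holds 8 genes, and all 8 were found among the 31463 rows of the tables and passed the filter on low counts. RNA was sequenced from primary cortical neuroglial cultures of newborn Wistar rats, in 6 groups of 3 libraries each. Control cultures received no glutamate. Glutamate cultures received 100 µM glutamate, the model of excitotoxicity, and Memantine cultures received 100 µM of memantine, which blocks NMDA-type glutamate receptors, together with glutamate. The label of the Memantine group names memantine alone, and its exposure to glutamate was taken from the design text and the methods. The groups Glutamate_vesicles, Glutamate_secret and Glutamate_BPC received secreted material of glial progenitor cells on the day before glutamate. The first of these was given extracellular vesicles, and the labels do not settle which of the other two received the protein fraction from 3 to 100 kDa and which the total secretome. All cultures had received 1 µM cytosine arabinoside on day 3 in vitro, which limits the growth of glia, and the model was set up on about day 10. By the methods, glutamate was left on the cells for 1 h, and RNA was taken after a further 4 h in culture medium. The labels do not say that the libraries of a group came from separate animals or cultures. The methods speak of repeats on unrelated cultures. A caption in the supplement names batch-corrected counts for a plot of the Control, Glutamate, Memantine and vesicle groups, and the caption of another plot names the day as covariate. Neither source ties these to the replicate numbers, so that p-values measure only the spread between these libraries.

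Transmitter is released when a synaptic vesicle fuses with the plasma membrane of the nerve terminal. Vamp2 on the vesicle and syntaxin 1A (Stx1a) and Snap25 on the plasma membrane wind into a bundle that pulls the membranes together, and synaptotagmin 1 (Syt1) couples this step to the entry of calcium. Synapsins tether vesicles in the reserve pool, synaptophysin (Syp) is an abundant vesicle protein that binds Vamp2, and Sv2a is a vesicle glycoprotein and the binding site of the antiepileptic drug levetiracetam. In the cortex these genes are expressed mainly by neurons.

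In the Glutamate libraries the RNA of all 8 genes was on average lower than in Control, with log2 fold changes from -2.15 to -1.23. With memantine the averages lay near Control, but 1 of the 3 Memantine libraries resembled the Glutamate libraries. The cultures given a glial preparation before glutamate had levels within the range of the Glutamate libraries or overlapping with it. The quasi-likelihood test of edgeR, adjusted over 14398 genes by the Benjamini-Hochberg method, called 0 of the 8 genes in any of these comparisons when all libraries were used and the replicate number was left out of the model. With the number as a block it called 3 of the 8 in Glutamate against Control, beside 166 of all genes tested. In Glutamate_vesicles against Control it called 5 of the 8, beside 538 of all genes. By the criterion given in the methods, the numbers paired the libraries in the second comparison but not in the first.

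Library totals ranged from 8409565 to 17206342 counts. Values are given as CPM, the read counts of a gene divided by the scaled library size, in the order of replicate numbers 1, 2 and 3. The share of ribosomal RNA rows was 43.0% of the counts in Control 1 and at most 26.6% in the other libraries, and Control 1 had the fewest genes with a count (14318). Neurons, which express these genes, were represented by all 13 neuron markers examined, each with a count in every library. Memantine 3 stood apart from its group. Its summed level of the 13 neuron markers was 1729 CPM, against 8410 and 5012 CPM in Memantine 1 and 2, and its summed level of 9 astrocyte markers was 11240 CPM, against 4894 and 3797 CPM. The counts of release genes that passed a test and their medians in comparisons with Memantine are therefore given with and without Memantine 3. Separate ranges were counted only with all libraries, so that Memantine 3 alone could make them overlap.

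Glutamate and Control were compared to see how the release genes behaved in the excitotoxicity model. Snap25 was measured at 34.3, 99.9 and 105 CPM in Control and at 9.9, 29.5 and 14.2 CPM in Glutamate. The groups did not overlap, although Control 1 lay close to the highest Glutamate library. The log2 fold change was -2.15 ± 0.82 (SE, n = 3 per group; 95% interval -3.90 to -0.41, edgeR adjusted p = 0.45), the most negative of the 8.

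Vamp2, the SNARE protein of the vesicle, had 356, 399 and 321 CPM in Control and 244, 104 and 113 CPM in Glutamate. Every Glutamate library lay below every Control library, and Glutamate 1 was the highest of its group. The log2 fold change was -1.23 ± 0.42 (95% interval -2.11 to -0.34). Stx1a had 62.8, 101 and 74.9 CPM in Control and 39.1, 10.5 and 13.3 CPM in Glutamate. The ranges were again separate, and the fitted level was 3.80-fold lower in Glutamate (log2 fold change -1.93 ± 0.66).

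Syt1, the calcium sensor of fast release, was the exception among the 8 genes. It was measured at 278, 48.6 and 29.9 CPM in Control and at 75.8, 20.8 and 34.3 CPM in Glutamate. The groups overlapped, and Control 1 alone had a level of over 100 CPM. The log2 fold change of -1.44 ± 1.03 had a 95% interval from -3.62 to 0.74, and without Control 1 it was 0.15.

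Among the other vesicle proteins, Syp had 522, 466 and 363 CPM in Control and 249, 53.3 and 91.2 CPM in Glutamate. All Glutamate libraries lay below the Control libraries, with a log2 fold change of -1.78 ± 0.73. Sv2a had 163, 178 and 114 CPM in Control and 79.2, 49.3 and 61.6 CPM in Glutamate. Its groups did not overlap either, the Glutamate libraries lay close together, and the log2 fold change was -1.26 ± 0.47.

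The synapsins differed from each other in the number 1 libraries. Syn1 had 64.0, 138 and 128 CPM in Control and 67.4, 38.0 and 31.8 CPM in Glutamate. Its ranges overlapped because Control 1 and Glutamate 1 had nearly the same level, and the log2 fold change was -1.27 ± 0.59. Syn2 had 14.3, 26.5 and 25.8 CPM in Control and 8.1, 4.8 and 3.7 CPM in Glutamate. Here the groups were separate, and the log2 fold change was -2.01 ± 0.62 (95% interval -3.34 to -0.69) with the smallest adjusted p of the 8 in this comparison (0.329, edgeR).

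**Figure D1:**
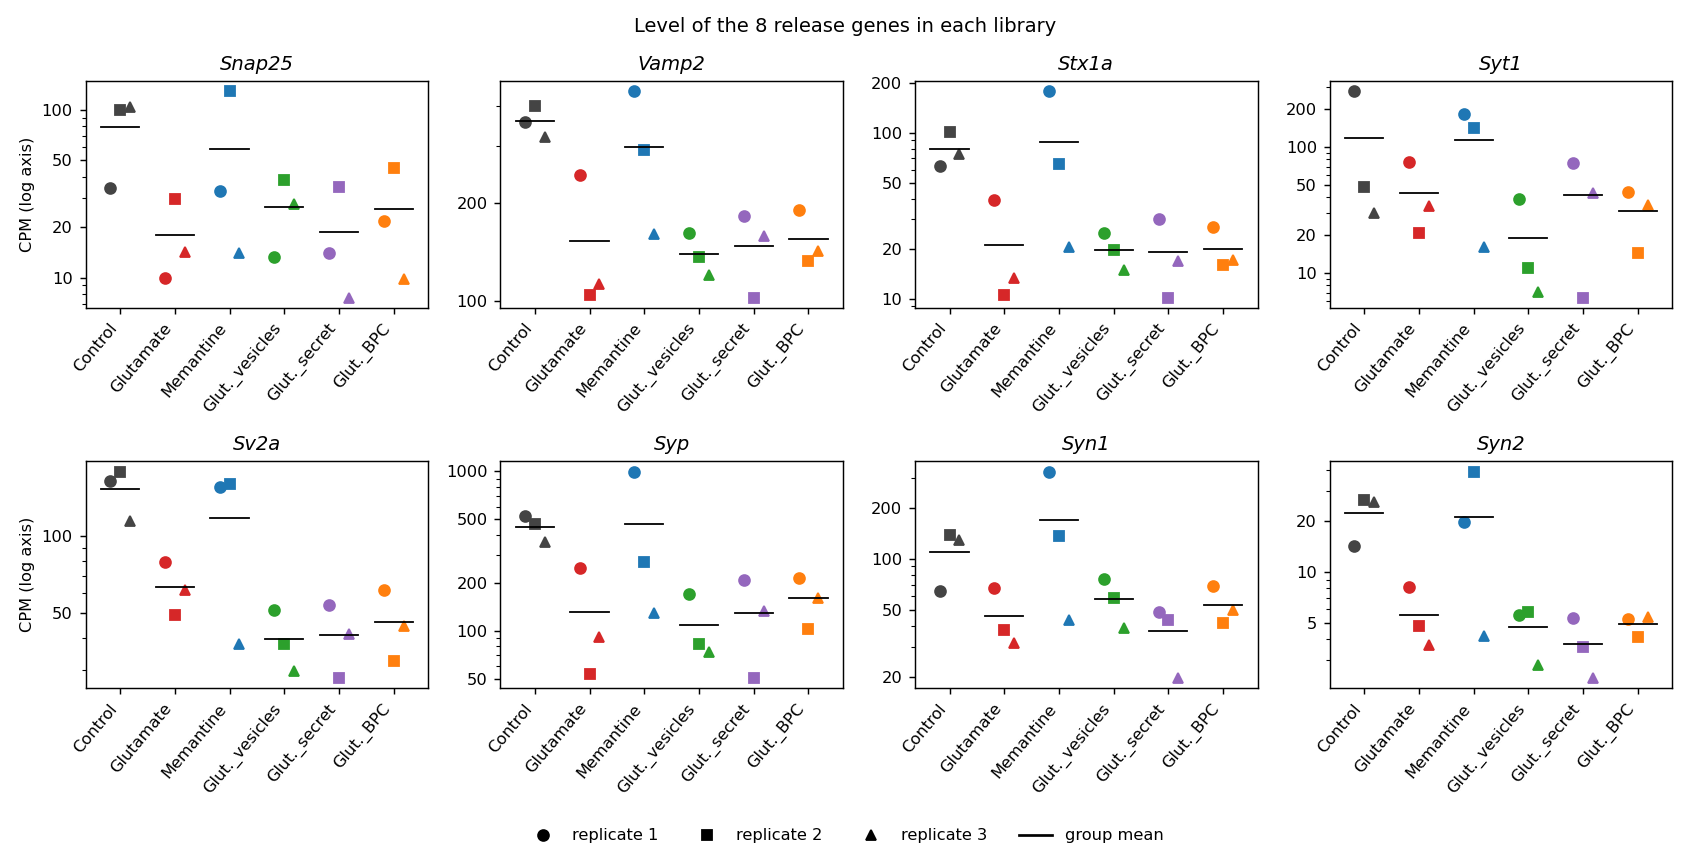
Level of each of the 8 genes in the 18 libraries in CPM on a log axis, 1 panel per gene, with groups on the horizontal axis, 1 symbol per replicate number and a bar at the group mean. Control and Memantine have the highest means in every panel, and Memantine 3 (the blue triangle) lies apart from Memantine 1 and 2 in most of them.

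A nominal criterion was used beside the adjusted test, namely an unadjusted p under 0.05 together with a change of more than 1.5-fold. It was met by 7 of the 8 genes with the lower level in Glutamate, and by 5.97% of all genes tested in that direction. The exception was Syt1. Separate ranges with the lower values in Glutamate were found for 6 of the 8 genes and for 7.76% of all genes. The median log2 fold change of the 8 was -1.61, and that of all genes tested was 0.08. None passed the adjusted threshold, which was also passed by 0% of all genes in the quasi-likelihood test. DESeq2 called 1.63% of all genes but 0 of the 8, and the likelihood-ratio test of edgeR likewise called 0 of the 8. Without Glutamate 2 or without Glutamate 3, the first count was 4 instead of 7. Over all genes, in either direction, 1186 and 729 met the nominal criterion without these libraries, against 1162 with all libraries.

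The start regions of the genes were read from a set of regions at RefSeq starts (build GRCr8). The set at hand held an entry for 7 of the 8 genes, all but Snap25, whose absence says nothing about RefSeq itself. The annotated start was the outer end of the gene for Syp, Syn1, Syn2 and Sv2a. For Syt1, Vamp2 and Stx1a it was not, and their regions are counted below but not shown. The sequences are the 250 bases before the annotated start of Syp, Syn1, Syn2 and Sv2a. They are written 5′ to 3′ in the direction of the gene, and capitals mark matches to the CRE (TGACGTCA) or the GC box (GGGCGG) on either strand. Syp lies on the minus strand at chrX:17536450-17536699, Syn1 on the plus strand at chrX:3725495-3725744, Syn2 on the plus strand at chr4:149858669-149858918 and Sv2a on the plus strand at chr2:186430113-186430362.
Syp: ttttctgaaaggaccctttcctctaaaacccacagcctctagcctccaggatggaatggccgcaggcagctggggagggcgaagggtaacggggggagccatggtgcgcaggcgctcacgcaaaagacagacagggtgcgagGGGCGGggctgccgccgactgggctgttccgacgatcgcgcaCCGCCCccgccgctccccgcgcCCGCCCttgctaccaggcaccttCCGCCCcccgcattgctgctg
Syn1: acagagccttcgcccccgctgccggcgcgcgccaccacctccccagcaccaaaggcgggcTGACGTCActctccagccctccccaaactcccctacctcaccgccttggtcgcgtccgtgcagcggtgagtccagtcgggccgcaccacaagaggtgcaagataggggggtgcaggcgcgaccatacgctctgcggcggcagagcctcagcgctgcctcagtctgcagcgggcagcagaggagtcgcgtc
Syn2: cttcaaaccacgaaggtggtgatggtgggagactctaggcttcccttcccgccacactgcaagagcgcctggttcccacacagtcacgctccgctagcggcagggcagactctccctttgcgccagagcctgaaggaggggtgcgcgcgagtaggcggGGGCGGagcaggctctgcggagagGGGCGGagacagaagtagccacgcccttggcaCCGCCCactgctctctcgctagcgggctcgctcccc
Sv2a: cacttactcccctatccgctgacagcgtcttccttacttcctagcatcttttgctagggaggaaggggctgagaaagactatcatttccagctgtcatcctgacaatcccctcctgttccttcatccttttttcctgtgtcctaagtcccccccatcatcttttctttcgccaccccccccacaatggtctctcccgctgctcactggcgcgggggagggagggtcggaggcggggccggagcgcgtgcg

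The CRE letters, the motif bound by CREB family factors, were found in 1 of the 7 regions, that of Syn1, with the first base 190 bases before the start. The share of all 33469 regions of the same length with this motif was 1.59%. The GC box was found in 5 of the 7 regions and in 30.5% of all regions, with 4 matches before Syp, 3 before Syn2 and none before Syn1 or Sv2a. The TATA box (TATAAA) and the AP-1 site (TGANTCA) had 0 matches in the 7 regions and were found in 12.9% and 6.34% of all regions. The motifs searched share no overlapping match in these regions. These matches describe letters in a window, and the rat build of the counts was another (rn6).

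The comparison of Memantine with Glutamate addressed whether the levels differed when the NMDA receptor was blocked during the exposure. The level of Stx1a was 178, 64.7 and 20.5 CPM in Memantine, against 39.1, 10.5 and 13.3 CPM in Glutamate. Memantine 1 and 2 lay above all Glutamate libraries, and Memantine 3 lay within their range. The log2 fold change was 2.06 ± 0.67 (95% interval 0.65 to 3.48, edgeR adjusted p = 0.611), the highest of the 8.

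Syp had 995, 268 and 129 CPM in Memantine and Syn1 had 327, 136 and 43.3 CPM. For both genes Memantine 1 was the highest of the 18 libraries. Syn2 had 19.7, 39.2 and 4.2 CPM, Snap25 had 33.0, 129 and 14.1 CPM, and for these Memantine 2 was the highest of all. Vamp2 had 443, 292 and 161 CPM, Sv2a 155, 159 and 37.9 CPM, and Syt1 185, 142 and 16.2 CPM. For Sv2a and Syt1, Memantine 3 lay below every Glutamate library, while Memantine 1 and 2 lay above them.

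All 8 log2 fold changes of Memantine against Glutamate were above 0, from 0.89 for Sv2a to 2.06 for Stx1a, with a median of 1.77 beside -0.02 for all genes tested. The nominal criterion was met, with the higher level in Memantine, by 5 of the 8 genes (Stx1a, Syn1, Syn2, Syp and Vamp2) and by 4.86% of all genes. In the quasi-likelihood test of edgeR 0 of the 8 genes were called and 0% of all genes. DESeq2 and the likelihood-ratio test called 0 of the 8, beside 2 and 0 of all genes. Separate ranges were found for 0 of the 8 genes and for 1.74% of all genes.

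Without Memantine 3, the median log2 fold change was 2.22 and 7 of the 8 genes met the nominal criterion. Over all genes, in either direction, 1976 met it without Memantine 3, against 729 with all libraries. With that library left out, edgeR's quasi-likelihood test called 3 of the 8 genes, and 1.73% of all genes tested. In this edgeR fit they were Syn2 (log2 fold change 2.41 ± 0.49, adjusted p = 0.0278), Syn1 (2.34 ± 0.52, adjusted p = 0.0368) and Stx1a (2.53 ± 0.60, adjusted p = 0.0485). The median was 0.92 without Memantine 1 and 1.15 without Memantine 2. The nominal count was 2 without Memantine 1, 3 without Memantine 2 and 3 without Glutamate 3, so that each of these libraries carried part of it. Over all genes it was 469, 585 and 416 in the same order, in either direction.

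Against Control, the Memantine group had log2 fold changes from -0.44 for Snap25 to 0.61 for Syn1, with a median of -0.07. In the quasi-likelihood test of edgeR 0 of the 8 genes and 0% of all genes were called, and DESeq2 called 0 of the 8 and 0 of all genes. The nominal criterion was met by 0 of the 8 and by 1.12% of all genes. The intervals were wide. That of Snap25 reached from -2.11 to 1.23 and that of Syn1 from -0.62 to 1.84, so that sizeable differences in either direction remained possible. Without Memantine 3 the median was 0.44 and 1 of the 8 genes met the nominal criterion, beside 433 of all genes. Without Memantine 1 the median was -0.60.

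The groups with a glial preparation were compared with Glutamate to ask whether the release genes differed when the cultures had been pretreated. Snap25 had 13.3, 38.2 and 27.7 CPM in Glutamate_vesicles, 14.0, 34.6 and 7.6 CPM in Glutamate_secret and 21.8, 45.1 and 9.9 CPM in Glutamate_BPC. In each group the number 2 library was the highest, as it was in Glutamate. The log2 fold change against Glutamate was 0.56 ± 0.79 for Glutamate_vesicles (95% interval -1.12 to 2.24).

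Vamp2 had 162, 136 and 120.2 CPM in Glutamate_vesicles, 183, 102 and 159 CPM in Glutamate_secret and 190.4, 132 and 142 CPM in Glutamate_BPC. All these values but 1, Glutamate_secret 2, lay within the range of the Glutamate libraries. Stx1a had 24.8, 19.6 and 14.8 CPM in Glutamate_vesicles, 30.2, 10.1 and 16.8 CPM in Glutamate_secret and 26.9, 16.0 and 17.0 CPM in Glutamate_BPC. The intervals of the log2 fold change of Stx1a against Glutamate ran from -1.45 to 1.28 for Glutamate_vesicles and were of similar width for the other preparations.

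Syt1 had 38.6, 11 and 7.0 CPM in Glutamate_vesicles, 74.7, 6.4 and 43.1 CPM in Glutamate_secret and 43.8, 14.4 and 34.9 CPM in Glutamate_BPC. The vesicle group had the lowest mean of the 6 groups, 18.9 CPM ± 17.2 (SD, n = 3), with a log2 fold change of -1.21 ± 1.02 against Glutamate that was within the spread of the libraries. Syp had 169, 82.6 and 73.7 CPM in Glutamate_vesicles, 207, 50.6 and 133 CPM in Glutamate_secret and 215, 103 and 160.4 CPM in Glutamate_BPC. Of these values 1, Glutamate_secret 2, lay below the range of the Glutamate libraries, and the others lay within it.

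Syn1 had 76.2, 58.5 and 39.1 CPM in Glutamate_vesicles, 48.7, 43.6 and 19.7 CPM in Glutamate_secret and 69.2, 41.5 and 49.9 CPM in Glutamate_BPC. Syn2 had 5.6, 5.8 and 2.8 CPM, then 5.4, 3.6 and 2.4 CPM, and then 5.3, 4.1 and 5.4 CPM in the same order of groups. Both synapsins overlapped with Glutamate in every preparation.

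Sv2a was the gene with the most regular difference between the preparations and Glutamate. It had 51.5, 38.0 and 29.6 CPM in Glutamate_vesicles, 53.7, 28.0 and 41.5 CPM in Glutamate_secret and 61.4, 32.7 and 44.7 CPM in Glutamate_BPC. In each preparation all 3 libraries lay below the Glutamate library of the same number, and the 3 comparisons share those Glutamate libraries. The numbers did not pair the libraries of Glutamate_vesicles and Glutamate by the criterion given in the methods. Over all genes, 13.7%, 20.1% and 14.1% were lower in all 3 numbers in Glutamate_vesicles, Glutamate_secret and Glutamate_BPC. The log2 fold changes of Sv2a were -0.67 ± 0.46, -0.63 ± 0.46 and -0.45 ± 0.46 in that order, and each 95% interval included 0.

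In the quasi-likelihood test of edgeR, 0 of the 8 genes were called against Glutamate in any preparation, and 0% of all genes. The nominal criterion was met by 0 of the 8 genes in each, beside 1.08% of all genes for Glutamate_vesicles, 0.674% for Glutamate_secret and 1.06% for Glutamate_BPC. DESeq2 and the likelihood-ratio test called 0 of the 8. Over all genes, in the same order of groups, DESeq2 called 3, 0 and 1 and the likelihood-ratio test 2, 0 and 0. The median log2 fold change of the 8 genes was -0.18 for Glutamate_vesicles, -0.11 for Glutamate_secret and -0.03 for Glutamate_BPC. The F test of edgeR among the 3 preparations gave unadjusted p-values from 0.536 for Syn1 to 0.993 for Stx1a, with 0 of the 8 genes and 0.382% of all genes below 0.05.

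**Figure D2:**
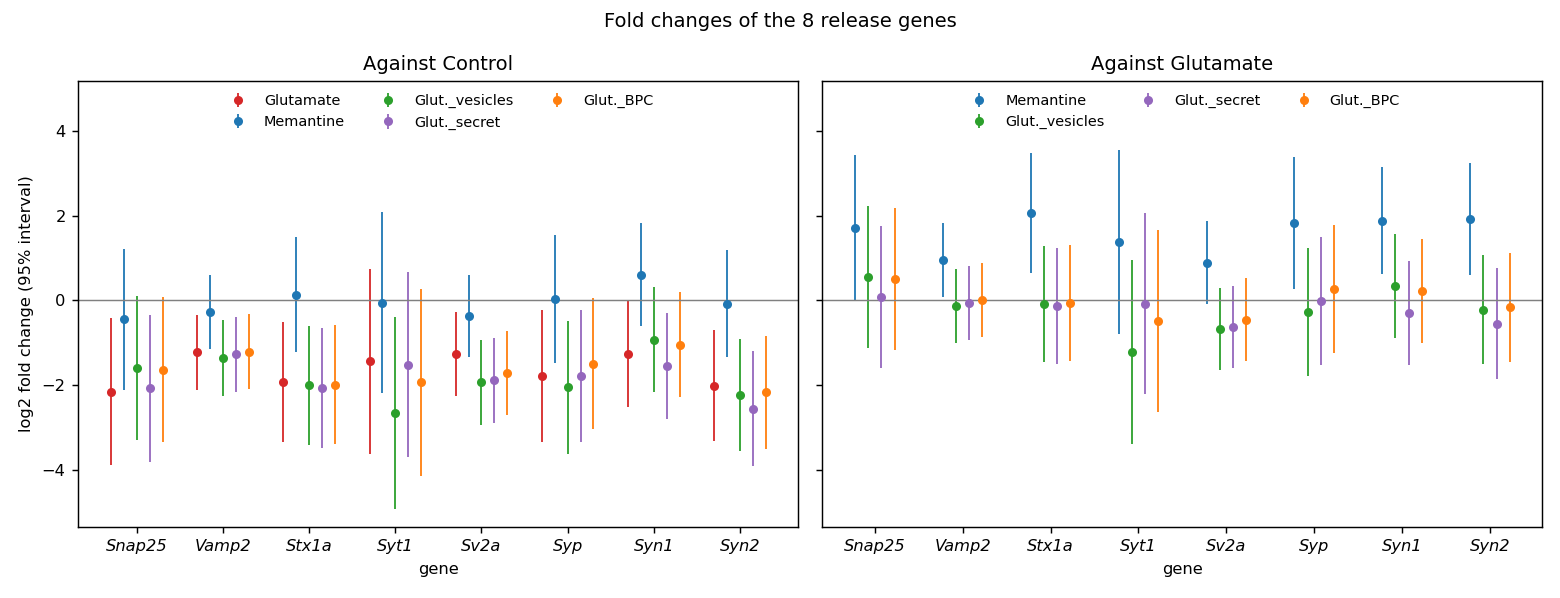
Log2 fold changes of the 8 genes with their 95% intervals from the quasi-likelihood fit of edgeR, against Control on the left and against Glutamate on the right, with 1 colour per group. The 4 glutamate groups without memantine lie below 0 against Control for all 8 genes, Memantine lies above 0 against Glutamate, and the 3 preparations scatter around 0 against Glutamate.

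Set against Control instead, the 3 preparations had lower average levels of all 8 genes. These comparisons share the Control libraries with each other and with that of Glutamate. The median log2 fold change was -1.97 for Glutamate_vesicles, -1.84 for Glutamate_secret and -1.68 for Glutamate_BPC. With all libraries, the largest differences were those of Syt1 in Glutamate_vesicles (-2.66 ± 1.07) and of Syn2 in Glutamate_secret (-2.56 ± 0.64) and in Glutamate_BPC (-2.18 ± 0.63). That of Syt1 rested on Control 1, without which it was -1.06. Sv2a had -1.94 ± 0.47, -1.89 ± 0.47 and -1.71 ± 0.47 in the 3 groups.

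A lower level by the nominal criterion was found for 6 of the 8 genes in Glutamate_vesicles (7.59% of all genes), for 7 in Glutamate_secret (7.58%) and for 4 in Glutamate_BPC (7.4%). Without Glutamate_secret 3, the second of these counts was 4, beside 1059 of all genes in either direction. Ranges below Control without overlap were found for 5 of the 8 genes in Glutamate_vesicles, 6 in Glutamate_secret and 5 in Glutamate_BPC, beside 9.83%, 9.07% and 12.7% of all genes. In the quasi-likelihood test of edgeR 0 of the 8 genes were called in each, beside 0.0139%, 0% and 0% of all genes. DESeq2 called Sv2a and Syn2 in all 3 comparisons and Vamp2 in that of Glutamate_vesicles, beside 3.39%, 3.08% and 1.74% of all genes in the order of the groups.

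The replicate numbers paired the libraries of Glutamate_vesicles and Control by the criterion given in the methods, although only 3 of the 6 libraries correlated best with that of their own number. The block was fitted over all 18 libraries, with number effects shared by the 6 groups, including groups that the numbers did not pair with Control. With the replicate number as a block, 5 of the 8 genes were called in this comparison by the quasi-likelihood test of edgeR, and 3.74% of all genes, each of the 5 with a lower level in Glutamate_vesicles. In this edgeR fit they were Sv2a (log2 fold change -1.96 ± 0.39, adjusted p = 0.0245), Syp (-2.22 ± 0.47, adjusted p = 0.0273), Stx1a (-2.15 ± 0.49, adjusted p = 0.0308), Vamp2 (-1.39 ± 0.32, adjusted p = 0.0323) and Syn2 (-2.37 ± 0.56, adjusted p = 0.0327).

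Taken over the 12 libraries that received glutamate without memantine, 5 of the 8 genes had every library below the lowest Control library. These were Vamp2, Stx1a, Syp, Syn2 and Sv2a, and 5.41% of all genes had the same pattern. For Snap25 and Syn1, 9 of the 12 libraries lay below the lowest Control library, and for Syt1 5 of the 12 did. For Snap25 and Syn1 the lowest Control library was Control 1, with 34.3 and 64.0 CPM.

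Glutamate_vesicles was also compared with Memantine, both under glutamate. The 8 log2 fold changes were below 0, from -2.60 for Syt1 to -1.10 for Vamp2, with a median of -1.83. Of the 8 genes, 7 met the nominal criterion with the lower level in Glutamate_vesicles, all but Snap25, beside 5.94% of all genes. The quasi-likelihood test of edgeR, DESeq2 and the likelihood-ratio test called 0 of the 8, beside 0, 83 and 11 of all genes. With Memantine 3 included, 0 of the 8 had separate ranges, beside 2.33% of all genes. Without Memantine 3, the quasi-likelihood test of edgeR called Sv2a (-1.96 ± 0.38, adjusted p = 0.0192), Syn2 (-2.62 ± 0.49, adjusted p = 0.0192) and Stx1a (-2.60 ± 0.60, adjusted p = 0.0391), and 2.44% of all genes. The median without Memantine 3 was -2.25 and the nominal count was again 7, beside 2369 of all genes in either direction. Without Memantine 1 the nominal count was 2, and without Glutamate_vesicles 3 it was 4, beside 584 and 453 of all genes.

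Over all 6 groups, the group means of every one of the 8 genes were ordered alike in one respect, with Control and Memantine above the 4 other groups. Syp had 464 CPM ± 465 (SD, n = 3) in Memantine, 450.2 ± 80.8 in Control, 159 ± 55.9 in Glutamate_BPC, 131 ± 104 in Glutamate, 130.1 ± 78.3 in Glutamate_secret and 108 ± 52.7 in Glutamate_vesicles. Neighbours in this order differed by less than the SD within groups, except that the gap between Control and Glutamate_BPC exceeded both of their SDs. The SD of Memantine was as large as its mean. Memantine 3 was the lowest Memantine library for each of the 8 genes, so that the Memantine means are higher without it. For 6 genes (Stx1a, Sv2a, Syn1, Syn2, Syp and Vamp2) the F test of edgeR across the 6 groups had an unadjusted p below 0.05, as did 7.75% of all genes. It called 0 of the 8, and 0.00695% of all genes, with a smallest adjusted p of 0.134 for Syn2. Without Memantine 3 the F test of edgeR called Stx1a, Sv2a, Syn1 and Syn2 (adjusted p = 0.0207, 0.00709, 0.0319 and 0.00417), and 3.41% of all genes.

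The libraries could also be ordered by the mean standardised log2 CPM of the 8 genes. The 5 highest were Memantine 1, Control 2, Memantine 2, Control 1 and Control 3, followed by Glutamate 1. Memantine 3 was at rank 12 of 18, and Glutamate_secret 2 was the lowest. Between pairs of the 8 genes, Pearson's r of log2 CPM over the 18 libraries ran from 0.05 for Snap25 and Syt1 to 0.98 for Vamp2 and Stx1a, with a median of 0.80 over 28 pairs. The points share the libraries, their depth and the treatment groups, and the values are a description.

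Snap25 and Syt1 departed from the others by replicate number. The mean level of Syt1 over the 6 groups was 116 CPM in the number 1 libraries, 40.5 in number 2 and 27.6 in number 3. For Snap25 it was 21.0, 62.7 and 29.7 CPM. After centring within numbers, r between Snap25 and Syt1 was 0.38 and the median over the 28 pairs was 0.82. The rRNA share also differed by number, from 13.4% to 43.0% in number 1 libraries from 3.04% to 8.15% in number 2 libraries and from 6.58% to 26.6% in number 3 libraries, which overlapped with both, and its part in these levels was not tested.

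Neuron markers differed in the same direction as the release genes. Against Control, the Glutamate libraries had lower average levels of all 13 neuron markers, 7 of them by the nominal criterion (5.97% of all genes), with a median log2 fold change of -1.16. Tubb3, the neuronal tubulin, had -2.02 ± 0.43, while Map2, a protein of dendritic microtubules, had -0.07 ± 1.04. The summed level of the 13 markers was 4150 to 7731 CPM in Control, 2109 to 3021 CPM in Glutamate, 1729 to 8410 CPM in Memantine and 1358 to 2670 CPM over the 3 preparations. The summed level of the 8 release genes was 1161 to 1495 CPM in Control, 310 to 772 CPM in Glutamate and 426 to 2335 CPM in Memantine.

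As a percentage of the summed neuron markers, the release genes came to 19.3% to 28.0% in Control, 14.7% to 25.6% in Glutamate, 24.6% to 27.8% in Memantine and 19.4% to 25.1% over the preparations. The ranges of all groups overlapped with that of Control. In Glutamate the overlap came from Glutamate 1 (25.6%), while Glutamate 2 and 3 (14.7% and 15.8%) lay below every Control library. Such sums give most weight to the genes with the highest levels. In whole cultures, fewer neurons and less RNA of these genes per neuron cannot be told apart.

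**Figure D3:**
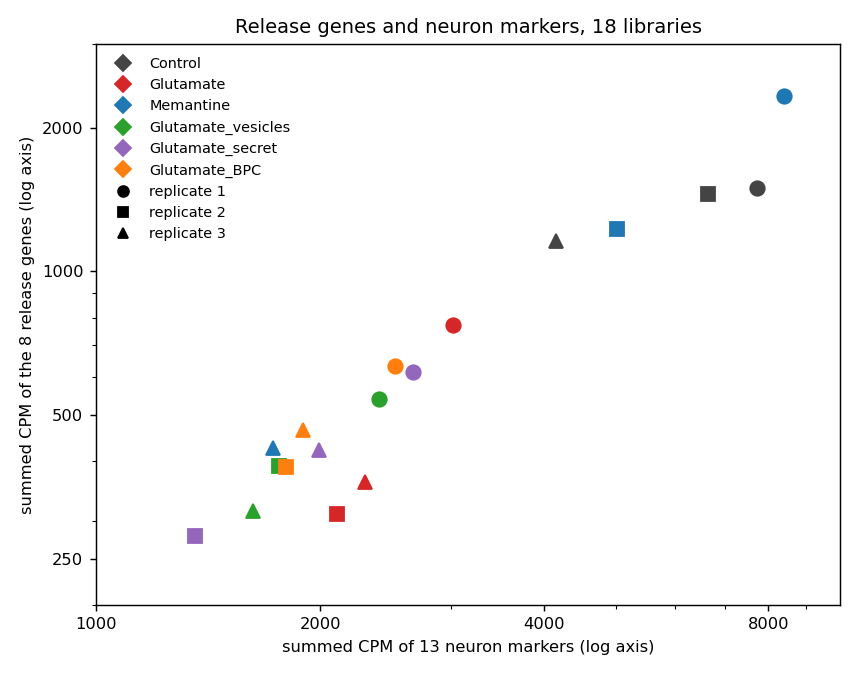
Summed CPM of the 8 release genes against summed CPM of 13 neuron markers in the 18 libraries, both on log axes, with 1 colour per group and 1 symbol per replicate number. The 3 Control libraries, Memantine 1 and Memantine 2 lie at the upper right, at 1161 to 2335 CPM of the release genes, and the other libraries lie at 279 to 772 CPM.

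Markers of glial cells mostly had averages above Control in Glutamate. The same held for 8062 of the 14398 genes tested, 303 of them by the nominal criterion. Of 9 astrocyte markers 8 had an average above Control in the Glutamate libraries, 0 of them by the nominal criterion and a summed level of 5868 to 11790 CPM, against 3545 to 6503 CPM in Control. All 9 microglia markers had averages above Control, 0 by the nominal criterion, with sums of 100.1 to 338 CPM in Glutamate and 40.3 to 118 CPM in Control. Of 10 markers of the oligodendrocyte lineage 9 had averages above Control and 1, the myelin enzyme gene Cnp (0.88 ± 0.40), met the nominal criterion. Their sums were 1257 to 1316 CPM in Glutamate and 556 to 952 CPM in Control. Markers of fibroblasts and mural cells (at most 20.3 CPM in sum) and of endothelium (at most 4.21 CPM) were low in every library. The part of the cell type makeup in the levels of the release genes was not tested.

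The other genes of the release pathway were taken from lists of known function, also chosen with earlier results of these data known. Their counts by the nominal criterion are to be read beside the 5.97% of all genes that were lower by it in Glutamate, and differences between lists were not tested. Of 15 partners and regulators of the SNARE proteins, all had averages below Control in Glutamate, 6 by the nominal criterion, with a median log2 fold change of -1.08. Doc2a, a calcium sensor of spontaneous release, had 7.1, 13.2 and 10.2 CPM in Control and 1.7, 0.89 and 0.68 CPM in Glutamate (-3.24 ± 0.68, edgeR adjusted p = 0.261).

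Of 13 tested relatives of the vesicle proteins, 3 had a lower level by the nominal criterion and the median was -1.02. Syngr3, a synaptogyrin related to synaptophysin, had -2.30 ± 0.59, and the third synapsin, Syn3, had -1.63 ± 0.71. Of 8 genes for the transmitter transporters and the proton pump of the vesicle, 4 were lower by the criterion, with a median of -1.77. Slc17a7, the vesicular glutamate transporter VGLUT1, had 51.4, 78.3 and 52.9 CPM in Control and 16.4, 3.8 and 4.1 CPM in Glutamate (-2.92 ± 0.85). Slc32a1, the transporter for GABA, had 18.8, 41.2 and 40.8 CPM in Control and 9.3, 6.3 and 5.9 CPM in Glutamate (-2.23 ± 0.47). Both transporters, of excitatory and of inhibitory terminals, had separate ranges in this comparison.

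At the active zone, where vesicles dock, 3 of 13 genes were lower by the criterion and the median was -1.05. Ppfia3, a liprin scaffold, had -1.53 ± 0.48 and Rimbp2, which links RIM proteins to calcium channels, had -1.05 ± 0.44. Averages above Control were found for 4 of the 13, none by the criterion. The highest was that of Rab27b, a Rab GTPase of secretory organelles (2.02 ± 1.18). It had 349 counts over the 18 libraries and lay below the level that the rule for named genes required. The scaffold genes Pclo and Erc1 had 0.69 ± 0.71 and 0.25 ± 0.99. Of 9 genes of vesicle recycling 2 were lower, namely Dnm1, the neuronal dynamin (-1.94 ± 0.70), and Dnajc6, the uncoating cofactor auxilin (-2.21 ± 0.86), and the median was -0.67. Bin1 had 0.30 ± 0.52 and Eps15 had 0.15 ± 0.38.

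The SNARE genes of other membranes were listed for comparison. Of 24 tested, 1 was lower by the nominal criterion, a share near that of all genes, and none was higher. The gene was Stx7, an endosomal syntaxin (-1.64 ± 0.43), and the median of the list was 0.25. Stx6, a syntaxin of the trans-Golgi network, had -0.69 ± 0.38. Vamp3, the relative of Vamp2 that is found in most cell types, had 87.9, 70.9 and 94.8 CPM in Control and 183, 105 and 164 CPM in Glutamate, with separate ranges in the opposite direction from Vamp2 (0.84 ± 0.41, unadjusted p = 0.058, edgeR). Gosr2, a Golgi SNARE, had 0.58 ± 0.29. None of the listed genes was called after adjustment in this comparison (smallest adjusted p = 0.261, edgeR).

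**Figure D4:**
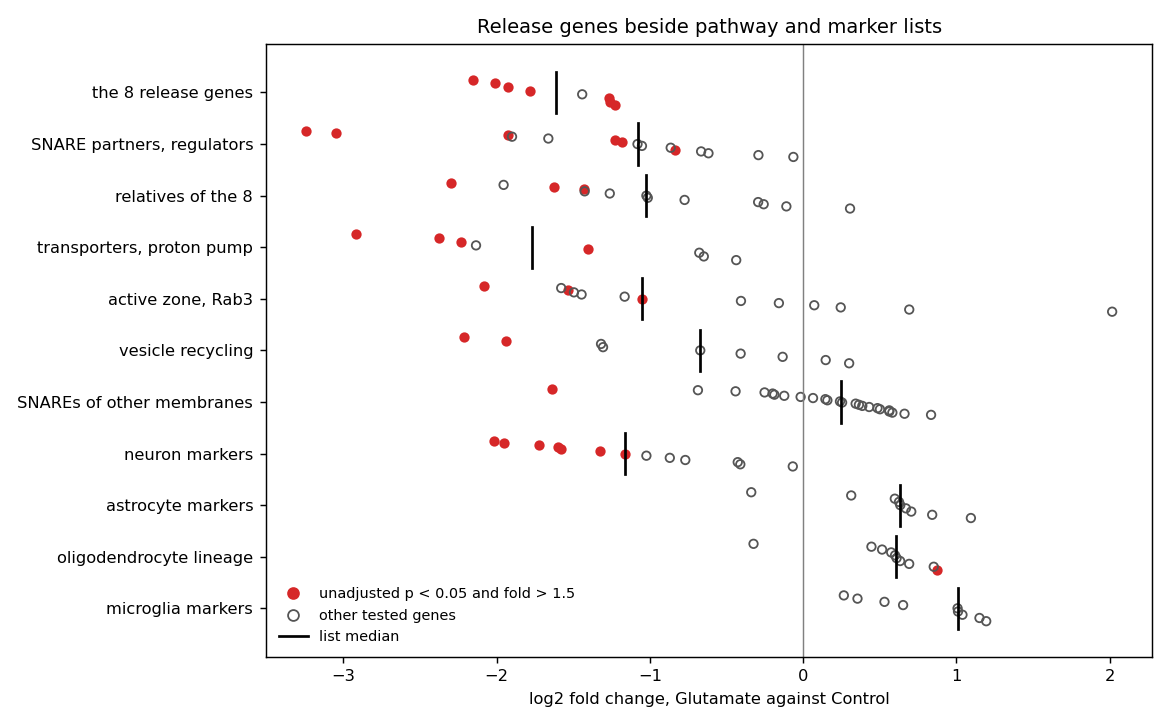
Log2 fold change of Glutamate against Control for each tested gene of the release genes, the 6 pathway lists and 4 marker lists, 1 row per list. Filled points met the nominal criterion, open points did not, and the bar is the median of the list, which is -1.61 for the release genes and 0.25 for the SNAREs of other membranes.

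In Memantine against Glutamate the same lists had medians above 0, with 1.69 for the SNARE partners, 1.54 for the relatives of the vesicle proteins, 1.16 for the transporters and pump, 1.22 for the active zone and 1.19 for vesicle recycling. The median was -0.22 for the SNAREs of other membranes. Without Memantine 3 the medians were 2.17, 2.05, 1.45, 1.60 and 1.64 in the same order, and -0.28 for the SNAREs of other membranes. Slc17a7 had 104, 80.3 and 8.3 CPM in Memantine (3.00 ± 0.85) and Dnm1 had 315, 134 and 24.3 CPM (2.40 ± 0.71), and for both Memantine 3 was by far the lowest of its group. In Glutamate_vesicles against Glutamate the medians of the 6 lists lay between -0.19 and 0.12.

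The log2 CPM of 11872 genes, all with a mean of 1 or more, was compared with the mean profile of the release genes. Those whose log2 CPM followed this profile most closely over the 18 libraries were Ppfia3 (r = 0.987), Camk2b (0.986), Atcay (0.986), Gng2 (0.984), Mpped1 (0.982) and Fam131b (0.981). Camk2b codes for a subunit of the calcium- and calmodulin-dependent kinase CaMKII. It had 375 CPM ± 73.3 (SD, n = 3) in Control, 116 ± 40.2 in Glutamate, 344 ± 235 in Memantine and 99.3 ± 21.0 in Glutamate_vesicles. The SD of the Memantine group was again the largest. These r values describe libraries that share groups, depth and composition.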

How the data were processed

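RNA was measured in 18 libraries, 3 in each of 6 groups given by the labels. The authors deposited expected counts per gene, which are estimated counts of reads without scaling between libraries. According to the methods, reads were trimmed with Trimmomatic and Cutadapt, quantified with Salmon against Ensembl 106 transcripts of rn6 and summed to genes with tximport 1.37.2, and the submitters' processing notes also name STAR. The labels and the methods name different platforms and library kits, and whether counting used strand is not stated in either, so that reads of overlapping genes may be shared. Each table held 31463 rows, and 78 rows of ribosomal RNA stayed in the library sizes, so that a high share of them leaves less depth for messenger RNA.

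Expected counts were rounded to whole numbers, since the tests had been designed for counts. Tests were run in edgeR 4.0.16 under R 4.3.3 (filterByExpr with a minimum count of 10 and a minimum total of 15, TMM scaling, 1 mean per group over all 18 libraries, two-sided quasi-likelihood test, Benjamini-Hochberg adjustment over 14398 genes, threshold 0.05). CPM were computed by edgeR from library sizes scaled by TMM, and log2 CPM used a prior count of 2. The SE of a log2 fold change was taken from the quasi-likelihood F statistic. The nominal criterion was an unadjusted p under 0.05 with a change above 1.5-fold. The scripts were run on simulated counts with known changes. A minimum number of recovered changes was required only at the lower simulated spread, so that the check does not tell how many changes would be missed in libraries as variable as these. Alternatives were DESeq2 1.42.0, the likelihood-ratio test of edgeR that the study used, the size factors of DESeq2, no filter, no ribosomal RNA rows, the compared groups alone, a replicate block, and each library left out in turn; the rRNA share as covariate and the joint removal of Control 1 and Memantine 3 were added after seeing the data. No libraries of a group agreed within sampling noise (smallest chi-square per degree of freedom 37.2).

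The numbers were taken to pair the libraries of 2 groups where all 3 correlations of deviations from the group means over genes, between libraries of the same number, exceeded 0.1. This held for Memantine, Glutamate_secret and Glutamate_BPC against Glutamate and for Glutamate_vesicles against Control and Memantine (r from 0.156 to 0.892). The pairing comes from the data alone, since the labels do not say what a number stands for.

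The release genes and the lists of pathway genes and cell type markers were chosen with earlier results of these data known. The rule for named genes took all 8 release genes, from each of 6 pathway lists up to 2 genes per direction by smallest p for Glutamate against Control and log2 CPM averaging 1 or more, and the 6 genes most like the mean profile of the release genes. Cplx1, Amph and Cldn5 had no row, and 9 other list genes did not pass the filter. The values of 1 further gene that this rule took are not reported here.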

Additional observations from a re-analysis of the deposited data

How the results depend on the processing

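The precision was limited by 3 libraries per group that differed widely, and adjusted calls of single genes depended on the test, the block and, among single libraries, Memantine 3. The filter on low counts, the removal of ribosomal RNA rows and the size factors of DESeq2 in edgeR changed none of the counts of called release genes. Size factors moved the median of all genes by at most 0.03 on the log2 scale. Over all comparisons and alternatives, the fold changes of single genes kept their direction and side of the threshold in 1082 cases, newly passed the adjusted threshold in 49 and changed sign in 69. The cause of these changes was not tested.

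The main count of called release genes was 0 in each comparison. DESeq2 called 3 for Glutamate_vesicles, 2 for Glutamate_secret and 2 for Glutamate_BPC against Control and 5 across the 6 groups. The likelihood-ratio test of edgeR called 1, 2 and 0 in the same comparisons with Control and 4 across the groups. Over all genes it called 160, 223, 61 and 587 in the same order. Leaving out single libraries gave 0 to 3 called genes for Memantine against Glutamate, 0 to 3 for Glutamate_vesicles against Memantine and 0 to 4 across the 6 groups, each highest without Memantine 3, and 0 in the other comparisons. A pair of alternatives was chosen after seeing the data. Without both Control 1 and Memantine 3, the count was 1 for Glutamate against Control (Syn2), 3 for Memantine against Glutamate, 2 for Glutamate_vesicles, 2 for Glutamate_secret and 1 for Glutamate_BPC against Control, 4 for Glutamate_vesicles against Memantine and 4 across the 6 groups. Over all genes tested, the counts without both libraries were 209, 382, 191, 341, 160, 633 and 571 in the same order. With the rRNA share (log2) as covariate, the count of release genes was 3 for Glutamate_secret against Control and 4 across the 6 groups. Over all genes that count was 581 and 385. Over all genes tested, Glutamate against Control gave 0 calls in the main test, 235 in DESeq2, 45 in the likelihood-ratio test, 166 with the replicate block, 32 with the rRNA covariate and 209 without both libraries, and the test across the 6 groups gave 1, 717, 587, 497, 385 and 571. The count by the nominal criterion went from 4 to 7 for Glutamate_BPC against Control in DESeq2, with the compared groups alone and with the block, and from 5 to 3 for Memantine against Glutamate with the compared groups alone. Over all genes, in either direction, the first count went from 1628 to 2075, 2442 and 3080, and the second from 729 to 202.

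The replicate number as a block gave 5 called genes in Glutamate_vesicles against Control, as described above, and changed no other call where the numbers paired the libraries. In comparisons where the libraries share only a number, the block gave 3 for Glutamate against Control (Snap25, Stx1a and Syp), 7 for Glutamate_secret against Control, 2 for Glutamate_BPC against Control and 6 across the 6 groups. Over all genes tested the block called 166, 700, 251 and 497 in the same order. The number of the 6 libraries that correlated best with their own number was 4 for Glutamate, 3 for Glutamate_secret, 3 for Glutamate_BPC and 4 for Memantine against Control, and 4 for Glutamate_vesicles against Glutamate. In the comparisons taken as paired it was 3 for Glutamate_vesicles against Control, 5 for Glutamate_vesicles against Memantine, and 6, 5 and 6 for Memantine, Glutamate_secret and Glutamate_BPC against Glutamate.

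The log2 fold changes that changed sign are given by comparison. For Glutamate against Control, the value was Syt1 0.10 without both Control 1 and Memantine 3. For Glutamate_secret against Control, the value was Syt1 0.033 without both Control 1 and Memantine 3. For Memantine against Control, the values were Sv2a 0.065, Syn2 0.14 and Syt1 2.01 without both Control 1 and Memantine 3, Syt1 0.43, Stx1a -0.28 and Syp -0.37 with the replicate block and Syt1 1.39 with the rRNA share (log2) as covariate. For Glutamate_vesicles against Glutamate, the values were Vamp2 0.026, Stx1a 0.18, Snap25 -0.15 and Syp 0.22 with the rRNA share (log2) as covariate and Stx1a 0.10 with the replicate block. For Glutamate_secret against Glutamate, the values were Vamp2 0.019 and Syp 0.10 with the replicate block, Snap25 -0.40 and Syp 0.14 with the rRNA share (log2) as covariate, Syp 0.033 with the size factors of DESeq2, Syp 0.033 in DESeq2 and Syp 0.0030 in the fit of the compared groups alone. For Glutamate_BPC against Glutamate, the values were Stx1a 0.10 with the replicate block and Stx1a 0.0027 with the rRNA share (log2) as covariate. Leaving out 1 library at a time also turned signs, and the ranges over the 6 libraries of each comparison follow. For Glutamate against Control they ran from -2.10 to 0.15 for Syt1. For Glutamate_vesicles against Glutamate they ran from -0.35 to 0.37 for Vamp2, from -0.44 to 0.16 for Syn2, from -0.41 to 0.73 for Stx1a and from -0.74 to 0.59 for Syp. For Glutamate_secret against Glutamate they ran from -0.27 to 0.45 for Vamp2, from -0.52 to 0.099 for Syn1, from -0.83 to 0.58 for Syt1, from -0.64 to 0.67 for Stx1a, from -0.73 to 0.64 for Snap25 and from -0.52 to 0.85 for Syp. For Glutamate_BPC against Glutamate they ran from -0.20 to 0.52 for Vamp2, from -0.0011 to 0.62 for Syn1, from -0.39 to 0.21 for Syn2, from -0.83 to 0.17 for Syt1, from -0.39 to 0.75 for Stx1a, from -0.18 to 1.08 for Snap25 and from -0.093 to 1.14 for Syp. For Memantine against Control they ran from -0.66 to 0.053 for Vamp2, from -0.66 to 0.066 for Sv2a, from -0.30 to 1.10 for Syn1, from -0.91 to 0.42 for Syn2, from -0.58 to 1.54 for Syt1, from -0.90 to 0.63 for Stx1a, from -1.77 to 0.043 for Snap25 and from -1.18 to 0.51 for Syp. For Glutamate_secret against Control they ran from -2.27 to 0.069 for Syt1. For Glutamate_vesicles against Memantine they ran from -1.60 to 0.17 for Snap25.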
